A study of Mus musculus with 30 samples.

Results

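The nuclear-encoded respiratory chain genes are the structural subunits of the 5 complexes of oxidative phosphorylation whose genes lie in the nucleus. They were chosen by symbol alone: Nduf followed by a, b, c, s or v and a number, Sdha to Sdhd, every Uqcr gene and Cyc1, Cox4 to Cox8 genes with a letter after the digit, and every Atp5 gene. The rule took 79 of the 14475 genes of the deposited table, 36 for complex I, 4 for complex II, 9 for complex III, 13 for complex IV and 17 for complex V. Ndufa4, now assigned to complex IV, is counted in complex I by its symbol.

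Complexes I and II take electrons from NADH and succinate and pass them to ubiquinone, complex III hands them on to cytochrome c, and complex IV gives them to oxygen. Complexes I, III and IV pump protons across the inner mitochondrial membrane, and complex V, the ATP synthase, lets them back to make ATP. Except for complex II, each complex also holds subunits encoded by mitochondrial DNA, so nuclear and mitochondrial products have to be assembled together. Colonocytes, the absorptive cells of the colon, are known for burning butyrate from the microbiota in their mitochondria.

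Total RNA was sequenced from 30 pieces of colon of female mice that all carried the same microbiota, and levels were deposited as FPKM, the number of sequenced fragments scaled to gene length and to library size. There were 8 libraries of ascending colon from O-glycan mutants, 7 of ascending colon from control littermates, 8 of descending colon from mutants and 7 of descending colon from controls. Mutants carried a floxed C1galt1, the VillinCre-ERT2 transgene, which expresses a tamoxifen-inducible Cre from the promoter of Villin, a gene of gut epithelial cells, and the C3GnT-/- deletion (gene B3gnt6), and controls are labelled as healthy littermates. Mutants and controls alike were injected intraperitoneally with tamoxifen on 5 days, at a daily 0.5 mg or about 20 mg/kg, and tissue was taken 5 or 10 days later, without a label saying which library had which interval. The mice came from 3 cages, each with mutants and controls: cage A (3.4 months old, strain label C57BL/6 Background), cage B (2.6 months, strain label mixed BL/6-129SvJ) and cage C (3.2 months, the same mixed label), although the growth protocol describes all of these mice as mixed. No label says which ascending and descending pieces came from 1 mouse, so p-values measure the spread between these libraries.

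The depth of the libraries, estimated from the spacing of low values, was 1.43 to 7.75 M reads (M, mega) in ascending mutants, 3.39 to 6.46 M in ascending controls, 6.49 to 8.85 M in descending mutants and 3.14 to 8.72 M in descending controls. C1galt1, the galactosyltransferase gene aimed at in the mutants, had 18.3 to 34.3 FPKM in ascending mutants, against 21.5 to 45.7 FPKM in ascending controls. In the descending colon it had 14.6 to 36.7 FPKM in mutants, against 28.0 to 38.7 FPKM in controls, so the groups overlapped in each region, and a level over the whole gene does not show how many cells lost the floxed part. B3gnt6 did not exceed 0.53 FPKM in ascending mutants, against 0.11 to 19.5 FPKM in ascending controls, and it stayed at or below 0.06 FPKM in descending mutants, against at most 0.43 FPKM in descending controls. Its median was only 0.45 FPKM in ascending and 0.06 FPKM in descending controls, so its groups overlapped too. All 30 libraries held colonocyte and goblet cell RNA, with Car1 at 156 FPKM or more and Muc2 at 381 FPKM or more. In the genes described here, 3 libraries stood apart from their groups: ascending mutant B1, descending mutant C1 and descending control A2. Their estimated depths of 6.55, 6.72 and 3.14 M reads lay within the range of all libraries. Descending control A2 was the shallowest descending library, below the next at 5.15 M, and the part of depth was not tested. Results that rest on these libraries are given with and without them. These are bulk samples, in which fewer cells of a type and less RNA per cell cannot be told apart.

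All 79 genes were detected, and each had a mean of at least 0.5 FPKM in every comparison. Their mean levels ran from 1.22 to 596 FPKM, and members of a few FPKM were found in complexes I, IV and V. In complex I, Ndufa1, a small subunit of the membrane arm that is encoded on the X chromosome, averaged 172.5 FPKM over the 30 libraries, and Ndufs5, another accessory subunit, averaged 3.75 FPKM. The 7 core subunits of complex I, which carry the flavin and the iron-sulfur clusters, averaged 17.0 to 76.2 FPKM. In complex II the membrane anchor Sdhd averaged 142 FPKM and the other anchor Sdhc 45.8 FPKM, with the catalytic subunits Sdha and Sdhb between them. In complex III the range ran down from Uqcr10 at 231 FPKM to Uqcrb at 34.2 FPKM, both small subunits. Complex IV had the highest member of all, Cox8a at 596 FPKM, and the lowest, Cox6b2, the form known from testis, at 1.22 FPKM. In complex V, Atp5a1 of the catalytic part averaged 340 FPKM, and Atp5g2 averaged 2.12 FPKM.

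Where a subunit has several gene copies, 1 copy usually had most of the measured level. Cox6b1 averaged 272 FPKM beside 1.22 FPKM for Cox6b2. The 3 genes that encode the same c subunit of the ATP synthase rotor were unequal as well: Atp5g3 averaged 133 FPKM, Atp5g1 2.38 FPKM and Atp5g2 2.12 FPKM. The Cox7a forms were closer together, with Cox7a2 at 146 FPKM, Cox7a1, the form known from heart and skeletal muscle, at 52.2 FPKM, and Cox7a2l, known as an assembly factor of supercomplexes, at 39.9 FPKM. Cox4i1 averaged 332 FPKM, Cox6a1 488 FPKM and Ndufa4 29.8 FPKM. Cox4i2, Cox6a2, Cox8b, Cox8c and Ndufa4l2 had no entry under these symbols in the table. Low levels of some members may be uncertain, because short reads cannot be placed where a copy elsewhere has the same sequence. Of all 50-nt windows of the transcripts, 84.9% were shared with another gene for Atp5l, 50.3% for Atp5o, 47.9% for Atp5h and 43.4% for Uqcrb. The share was 39.7% for Ndufs3, 38.7% for Atp5f1, 37.0% for Ndufb4, 34.1% for Ndufb6 and 32.05% for Cox5a. It was 31.1% for Ndufs5, 28.5% for Ndufa13 and 27.9% for Cox7c, and 14.8% for Atp5g2 and 11.6% for Atp5g1. The part this played in their levels was not tested. For Cox7a1, Sdhb, Uqcrq, Cox8a and Ndufa1 no window was shared.

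The members moved up and down together from library to library, and a few libraries at the ends of their groups carried most of that movement. Averaged over the 79 genes, the level on the log2(FPKM + 1) scale was 5.78 ± 0.34 in ascending mutants (SD, n = 8), against 5.49 ± 0.24 in ascending controls (n = 7), and 5.51 ± 0.59 in descending mutants (n = 8), against 5.51 ± 0.33 in descending controls (n = 7). Together the members took 1.79 to 3.58% of all FPKM in ascending mutants, against 1.92 to 3.03% in ascending controls, and 0.979 to 3.86% in descending mutants, against 1.62 to 3.33% in descending controls. These ranges overlapped between mutants and controls in each region.

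Ascending mutant B1, at a mean of 5.03, was the lowest of its group for 73 of the 79 genes. Descending mutant C1, at 4.19, was the lowest of its group for 72, and descending control A2, at 4.92, for 68. At the upper end, descending mutant A3, at 6.21, was the highest of its group for 73 members, and descending control B1, at 5.93, for 61. The shift ran through all 5 complexes: in descending mutant C1, 77 members lay below the mean of the other descending mutants, with a median deviation of -1.59 on the log2 scale. In ascending mutant B1, 75 lay below, with a median of -0.95, and in descending control A2, 74, with a median of -0.76. The mean over all genes of the table stayed between 2.56 and 2.85 on the same scale in the 30 libraries. The FPKM summed over all genes was the lowest of its group in ascending mutant B1 (238800), descending mutant C1 (201200) and descending control A2 (219000). It was the highest of its group in descending mutant A3 (270400) and descending control B1 (267500), and the part this sum played was not tested. Other gene groups were low in the low libraries too. In ascending mutant B1, descending mutant C1 and descending control A2, the mitochondrial ribosome genes averaged 2.95, 2.73 and 3.13, below the 3.26, 3.41 and 3.38 of the next lowest library of each group. The citric acid cycle genes averaged 4.69, 4.29 and 4.62, below 5.04, 4.96 and 5.05. The small-subunit genes of the cytosolic ribosome averaged 3.15 and 2.96 in the low mutant libraries, below 3.56 and 3.92, but not in descending control A2. Assembly factors, electron carriers and mitochondrial carriers were likewise lowest of their groups in all 3, and regulators of mitochondrial biogenesis were highest.

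A small set of members did not follow. Cox7c and Atp5l lay above the mean of the other libraries in all 3 low libraries and below it in the 2 high ones. Cox7c, a small subunit of complex IV, had 19.8 FPKM in descending mutant C1, the highest of its group, and 5.59 FPKM in descending mutant A3, the lowest. Cox6b2 and Atp5g2 went against the others in ascending mutant B1, descending control A2, descending mutant A3 and descending control B1. These are weakly measured members or members with shared sequence, and what sets them apart was not tested. The spread over the 30 libraries was smallest for Ndufs3, with an SD of 0.23 on the log2 scale, and largest for Uqcrq, with 0.77. It was larger in short transcripts: the median SD was 0.59 over the 26 shortest members, 0.48 over the 26 of middle length and 0.43 over the 27 longest.

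**Figure D1:**
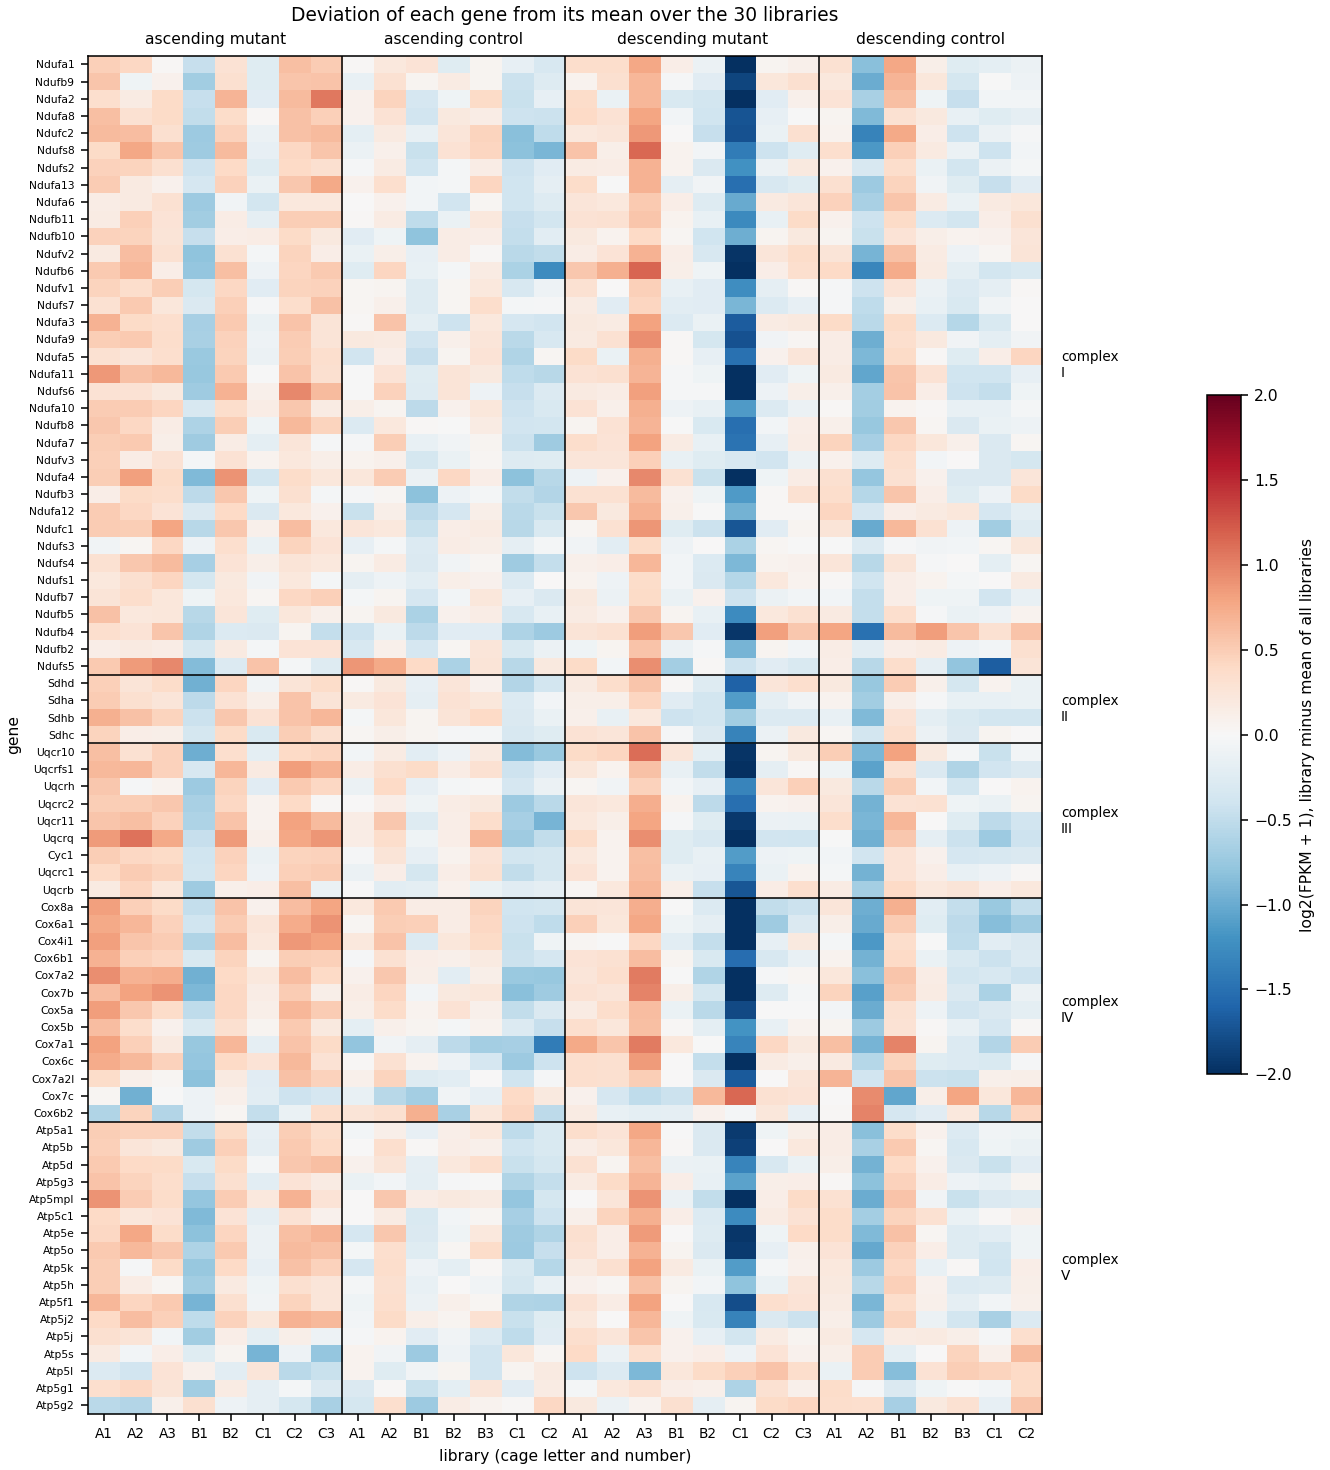
Deviation of each of the 79 genes (down the page, by complex) from its own mean over the 30 libraries, in log2(FPKM + 1), for each library (across, by group). Ascending mutant B1, descending mutant C1 and descending control A2 appear as low columns through all 5 complexes, and Cox7c and Atp5l run the other way in them.

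The promoters of the members were examined because the genes moved together. RefSeq promoter windows of the GRCm38.p6 build, from 250 bases before to 50 after the RefSeq start of the gene, matched 66 of the 79 members, 64 by symbol and 2 by synonym. Motifs of 4 factors known to drive mitochondrial genes were searched on both strands, none of which overlaps another in the windows printed here: GCATGCG for NRF1, CCGGAAG for GABPA, AAGATGG for YY1 and AAGGTCA for ESRRA. NRF1 letters were in 16.7% of members with a window, against 6.71% of the table's genes with a window, and GABPA letters in 24.2%, against 18%. YY1 letters were in 16.7% of members, against 7.95% of the table's genes, and ESRRA letters in 12.1%, against 4.10%. None of the 4 was in 31 members, 1 of them in 27, and at least 2 in 8, which were Sdhd, Sdhb, Uqcr11, Cox6a1, Atp5e, Atp5k, Atp5j and Atp5l. The windows of 3 genes named in the comparisons of genotype, region and cage are printed with the motif letters in capitals. Sdhb, at chr4:140961021-140961320 on the plus strand, holds the NRF1 letters at bases 197 to 203 and the GABPA letters at bases 257 to 263. Ndufs5, at chr4:123718137-123718436 on the minus strand, holds the reverse complement of the ESRRA letters at bases 23 to 29. Cox7a1, at chr7:30183921-30184220 on the plus strand, holds none of them in this window.
Cox7a1: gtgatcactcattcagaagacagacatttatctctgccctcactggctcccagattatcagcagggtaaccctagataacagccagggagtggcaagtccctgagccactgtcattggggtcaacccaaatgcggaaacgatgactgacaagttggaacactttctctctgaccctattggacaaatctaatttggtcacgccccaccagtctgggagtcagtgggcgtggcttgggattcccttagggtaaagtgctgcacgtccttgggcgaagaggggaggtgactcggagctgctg
Sdhb: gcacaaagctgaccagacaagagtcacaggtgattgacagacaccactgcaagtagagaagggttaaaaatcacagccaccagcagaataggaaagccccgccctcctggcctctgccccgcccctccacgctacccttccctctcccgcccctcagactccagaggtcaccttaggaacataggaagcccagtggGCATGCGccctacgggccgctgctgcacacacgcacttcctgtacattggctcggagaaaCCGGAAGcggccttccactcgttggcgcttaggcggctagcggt
Ndufs5: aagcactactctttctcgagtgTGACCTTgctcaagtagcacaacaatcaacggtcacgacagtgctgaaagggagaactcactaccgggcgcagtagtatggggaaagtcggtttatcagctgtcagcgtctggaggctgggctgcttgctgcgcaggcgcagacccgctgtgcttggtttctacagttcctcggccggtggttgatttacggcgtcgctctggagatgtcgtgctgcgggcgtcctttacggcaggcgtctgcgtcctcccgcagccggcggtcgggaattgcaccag

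In the ascending colon, most members had higher values in mutants than in controls, and none passed the test. The question was whether loss of the O-glycan enzymes went with a change in the respiratory chain of the tissue. With limma and Benjamini-Hochberg adjustment over all genes, 0 of the 79 members were called, against a background of 0% of 12178 genes. The difference was above 0 for 73 members, with a median of 0.31 on the log2(FPKM + 1) scale, against a median of -0.05 over all genes. At an unadjusted p under 0.05 there were 19 members and 1396 of all genes, and the lowest adjusted p of a member was 0.228 with limma. Medians were 0.29 for complex I, 0.20 for complex II, 0.38 for complex III, 0.35 for complex IV and 0.31 for complex V.

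The same held for each functional part of the complexes, with few exceptions. All 7 core subunits of complex I had differences above 0, from 0.18 to 0.53, and so did 28 of its 29 other members. The catalytic subunits and the membrane anchors of complex II, 4 genes, were all above 0. So were the 9 members of complex III, with a median of 0.38 for its 5 small subunits. In the ATP synthase the 5 members of the catalytic part ranged from 0.17 to 0.44 and the 4 of the peripheral stalk from 0.10 to 0.43. The 6 members below 0 were Cox6b2 and Atp5g2 (-0.23 each), Ndufs5 (-0.12), Atp5s and Atp5l (-0.11 each) and Cox7c (-0.09), of which Cox6b2, Atp5g2, Atp5l and Cox7c are those that went against the rest in the low libraries.

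Cox7a1 (chromosome 7, 30184144 to 30186078, plus strand, GRCm38) had the largest difference. Its level was 27.4 to 83.0 FPKM in ascending mutants, with a median of 64.2, against 17.2 to 44.7 FPKM in ascending controls, with a median of 29.6. Ascending mutant B1 was the lowest mutant library, the next lowest was C1 at 41.5 FPKM, and the groups overlapped through these 2. The log2 difference was 0.88 ± 0.23 (SE), with a limma adjusted p of 0.228, and it was above 0 in cage A (0.92), cage B (0.42) and cage C (1.29). Ndufv3, an accessory subunit of the NADH-oxidising arm of complex I, had 29.9 to 42.9 FPKM in mutants, with a median of 34.8, against 23.7 to 32.9 FPKM in controls, with a median of 27.7. Its difference was 0.30 ± 0.09 (SE), with a limma adjusted p of 0.273. Ndufa12, an accessory subunit of complex I, had 16.3 to 29.2 FPKM in mutants, against 13.6 to 21.9 FPKM in controls, a difference of 0.45 ± 0.14 with a limma adjusted p of 0.281. The groups overlapped for each of them.

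**Figure D2:**
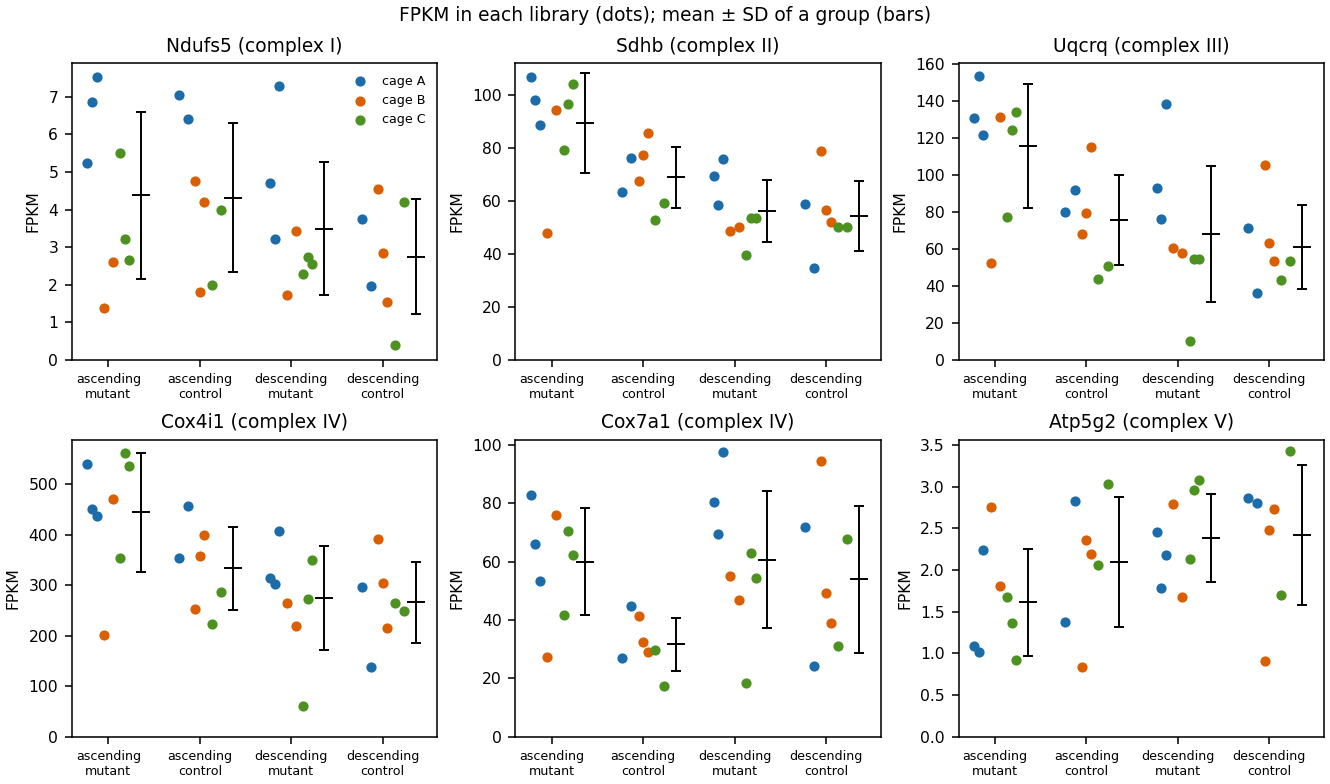
Level in FPKM of Ndufs5, Sdhb, Uqcrq, Cox4i1, Cox7a1 and Atp5g2 in each library, with ascending mutants, ascending controls, descending mutants and descending controls from left to right and the cage marked by symbol. Cox7a1 spans 27.4 to 83.0 FPKM in ascending mutants, against 17.2 to 44.7 FPKM in ascending controls.

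One library decided the calls in the ascending colon. The median difference of the members was 0.31 in cage A, -0.10 in cage B and 0.65 in cage C, and without ascending mutant B1 it was 0.38 in cage B, with 76 members above 0. Without that library, limma called 19 members, all higher in mutants, beside a background of 0.724% of 12155 genes called higher, 0.675% called lower and 1.40% called in either direction. The library was picked for low values of these same members. The calls and adjusted p-values without it therefore describe its weight and are not independent support. The median was then 0.48, and 74 members were above 0. Complex I held 6 of the 19, complex II 1, complex III 4, complex IV 5 and complex V 3. Among them were Cox7a1 at 1.11 ± 0.18 (SE, limma adjusted p of 0.0360), Atp5g3, the main c subunit gene, at 0.54 ± 0.09 (0.0363), Uqcrq, a small subunit of complex III, at 0.84 ± 0.16 (0.0411) and Sdhb, the iron-sulfur subunit of complex II, at 0.53 ± 0.10 (0.0411). Ndufs8, a core iron-sulfur subunit of complex I, stood at 0.78 ± 0.17 (limma adjusted p of 0.0445), and Ndufa12 at 0.56 ± 0.13 (0.0470). Leaving out all of cage B gave 31 called members and 652 of 12115 called genes in all, and weighting libraries by their quality gave 33 and 746 of 12178. Leaving out cage C instead gave a median of 0.10 and no called member.

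Markers of other cells differed in the same comparison. The 13 smooth muscle markers summed to 30.5 to 88.3 FPKM in ascending mutants, against 40.9 to 531 FPKM in ascending controls. Ascending control B1 alone had 531 FPKM, and the next control, C1, had 141 FPKM. None of the 12 smooth muscle markers tested was above 0. The 12 markers of fibroblasts and matrix summed to 17.6 to 77.6 FPKM in ascending mutants, against 62.0 to 168 FPKM in ascending controls, with none of the 11 tested above 0. Of these markers Lmod1, Myocd, Mfap5 and Lum were listed at 0 in at least 1 library. The 16 colonocyte markers summed to 15110 to 23350 FPKM in ascending mutants, against 9662 to 16870 FPKM in ascending controls. Car1 alone averaged 10050 FPKM in ascending mutants, against 4800 FPKM in ascending controls, so this 1 gene weighs heavily in the sum. Averaged on the log2 scale, the 16 markers overlapped, with 8.04 to 8.79 in ascending mutants, against 7.70 to 8.81 in ascending controls. Ascending control B1 had the top control value in both measures, and the next control, B3, had 14310 FPKM and 8.20. Of the 16 markers, 12 were above 0 with a median of 0.28, close to that of the members. All 17 proliferation markers were above 0, with a median of 0.42. None of these markers was called by limma with all libraries, 1 colonocyte and 3 proliferation markers were called higher without ascending mutant B1, and their part in the members' differences was not tested. For Cox7a1, whose best known sites are heart and skeletal muscle, the 5 markers of those tissues in the table summed to 10.6 to 23.2 FPKM in ascending mutants, against 10.1 to 79.4 FPKM in ascending controls. The 79.4 FPKM was again in ascending control B1, and the next control, C1, had 20.4 FPKM.

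In the descending colon the members did not separate mutants from controls. With limma 0 of 79 were called, against a background of 0% of 12219 genes, and 0 members had an unadjusted p under 0.05, against 267 of all genes. The median difference was 0.02, against -0.04 over all genes, with 49 members above 0. Its sign was not stable: it was -0.01 after quantile normalization, -0.17 without descending control A2, 0.19 without descending mutant C1 and 0.02 without the 3 low libraries, and of 29 alternatives 9 gave a median below 0. Differences ran from -0.19 ± 0.32 (SE) for Ndufa2 to 0.30 ± 0.28 for Ndufs5. The smallest p-values belonged to Ndufb7 at 0.16 ± 0.12, Ndufs5 and Atp5s, a factor of the ATP synthase outside its core, at -0.12 ± 0.14, each with a limma adjusted p of 0.999. Cox7a1 had 18.3 to 97.8 FPKM in descending mutants, with a median of 59.1, against 24.4 to 94.7 FPKM in descending controls, with a median of 49.2. The libraries of these groups lay in the same range, with descending mutant C1 lowest and descending mutant A3 highest.

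The cages did not go the same way in the descending colon. The median difference of the members was 0.64 in cage A, which holds the low descending control A2, -0.20 in cage B and -0.37 in cage C, which holds the low descending mutant C1. Without these 2 libraries the medians were 0.17, -0.20 and 0.13. A test of whether the genotype effect depended on the cage, the moderated F test of limma, called 0 members in either region, beside 0% of all genes in the ascending and 0.00818% in the descending colon. Unadjusted p-values under 0.05 were found for 16 members in the ascending and 0 in the descending colon, and the lowest limma adjusted p was 0.443 in the ascending colon, shared by Cox6a1, Cox7b and Cox7a2, and 0.879 in the descending colon.

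The genotype effect was not shown to differ between regions. The difference of the effects, ascending minus descending, was above 0 for 76 members with a median of 0.27, against -0.01 over all genes. The median was 0.09 without descending mutant C1, 0.46 without descending control A2 and 0.42 without ascending mutant B1, and it was -0.11 without cage C, with 22 members above 0. With limma 0 members were called, against a background of 0% of 12353 genes, and 0 members reached an unadjusted p under 0.05. The members with the smallest p-values were Ndufb10, an accessory subunit of complex I, at 0.49 ± 0.25 (SE), Ndufv3 at 0.24 ± 0.14 and Ndufa12 at 0.36 ± 0.22, each with a limma adjusted p of 1.00. The standard errors are those of single genes, and the members share their libraries.

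**Figure D3:**
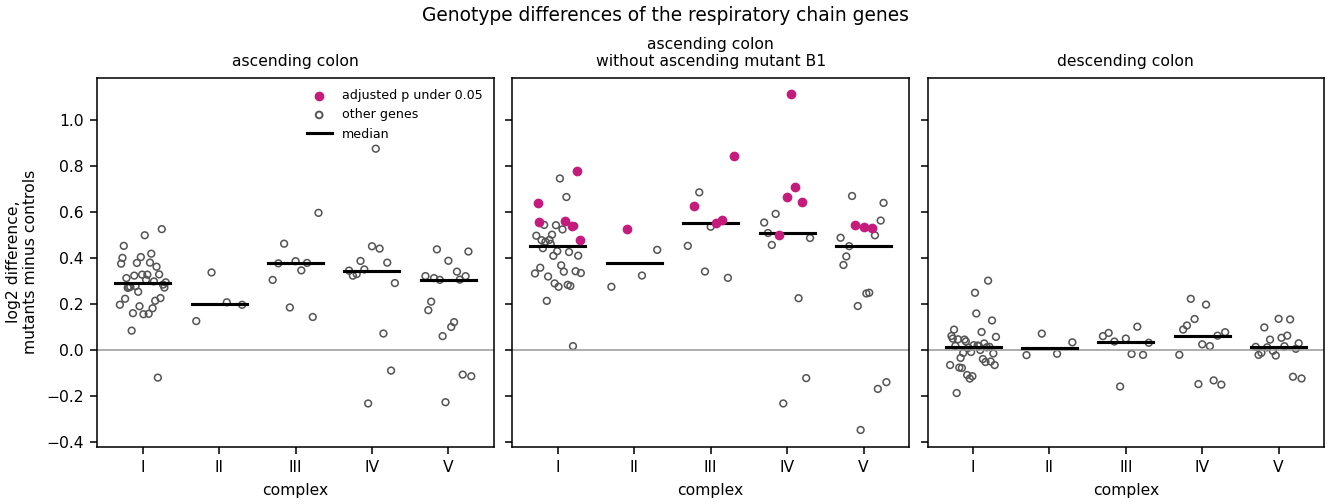
Log2 difference of mutants minus controls for each of the 79 genes by complex, in the ascending colon, in the ascending colon without ascending mutant B1, and in the descending colon. The medians are 0.31, 0.48 and 0.02.

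Between regions, few respiratory chain genes were called while much of the transcriptome was. In mutants, ascending against descending colon, limma called 8 of the 79 members, which is 10.1%, beside a background of 44.0% of 12203 genes. Of these, 6 were higher in the ascending colon, 7.59% of the members against 14.3% of all genes, and 2 were lower, 2.53% against 29.7%. The median difference was 0.26, against -0.16 over all genes, and 70 members were above 0. Without descending mutant C1 it was 0.10, with 49 members above 0, and without cage C it was 0.04. Complex medians were 0.25 for complex I, 0.30 for complex II, 0.37 for complex III, 0.45 for complex IV and 0.14 for complex V.

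Sdhb (chromosome 4, 140961203 to 140979193, plus strand), which passes electrons from succinate through its iron-sulfur clusters, was the member with the smallest p. It had 47.8 to 107 FPKM in the ascending colon of mutants, with a median of 95.4, against 39.7 to 75.7 FPKM in the descending colon of mutants, with a median of 53.5. Apart from ascending mutant B1, every ascending mutant library lay above every descending one. The log2 difference was 0.65 ± 0.14 (SE), with a limma adjusted p of 0.00128, and it was 0.52 in cage A, 0.44 in cage B and 0.92 in cage C. Its call held under all the alternatives tried.

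The other higher members had larger p-values. Uqcrq, on chromosome 11 (53427922 to 53430831, minus strand), had 52.2 to 153 FPKM in ascending mutants, with a median of 128, against 10.3 to 138 FPKM in descending mutants, with a median of 59.1. Apart from B1 and C1, every ascending mutant had at least 122 FPKM, and of the descending mutants only A3 had more than that. Its difference was 0.94 ± 0.33 (SE, limma adjusted p of 0.0292). Cox4i1, the main form of the largest nuclear subunit of complex IV, had 202 to 562 FPKM in ascending mutants, with a median of 461, against 60.3 to 408 FPKM in descending mutants, with a median of 288. The groups overlapped through ascending mutants B1 and C1, the other 6 lay above every descending mutant, and the difference was 0.79 ± 0.31 (limma adjusted p of 0.0496). Uqcrfs1, the iron-sulfur protein of complex III, stood at 0.74 ± 0.28 (0.0408), Atp5j2, a small membrane subunit of the ATP synthase, at 0.57 ± 0.21 (0.0328) and Ndufs7, a core iron-sulfur subunit of complex I, at 0.45 ± 0.16 (0.0279), all with limma. The lower members were Atp5g2 at -0.40 ± 0.15 (limma adjusted p of 0.0375) and Atp5s at -0.36 ± 0.14 (0.0474). Atp5g2 had 0.92 to 2.76 FPKM in ascending mutants, against 1.68 to 3.08 FPKM in descending mutants, so its call rests on values near the low end of the table. Of 30 alternatives, the call was lost in 6 for Ndufs7 and Uqcrq, 8 for Atp5j2, 11 for Uqcrfs1, 18 for Cox4i1 and 21 for Atp5s, and in 15 of 29 for Atp5g2.

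The count in mutants moved with single libraries. Counts with 1 library left out are given without the share of all genes called, so they show only how the calls moved. It was 19 without ascending mutant B1 and 13 without descending mutant A3. It was 5 without ascending mutant A1 or A2, 4 without C1, 2 without B2 or C2, and 1 without C3. Among descending mutants it was 5 without A1, B2, C2 or C3, and 4 without A2. Without the 2 low libraries, ascending mutant B1 and descending mutant C1, limma called 22 members, 20 of them higher, beside a background of 48.2% of all genes called and 15.3% called higher. Both libraries were picked for low values of the members, so these calls are not independent support. Complex IV then held 7 called members of its 13. The values without them were 0.69 ± 0.10 (SE) for Sdhb, 0.77 ± 0.16 for Uqcrq, 0.62 ± 0.14 for Cox4i1 and 0.56 ± 0.14 for Uqcrfs1, with limma adjusted p of 3.42e-05, 0.00130, 0.00214 and 0.00396. The 2 lower members were Atp5g2 at -0.50 and Ndufb4, an accessory subunit of complex I, at -0.45. Median-of-ratios scaling, which moves the median of all genes to -0.03, called 20 members, all higher, and neither Atp5g2 (-0.29) nor Atp5s (-0.23) passed. The share of all genes called under this scaling is not given here, so this count does not set the members against other genes.

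In controls, ascending against descending colon, limma called 0 of the 79 members, beside a background of 37.9% of 12515 genes, 12.8% higher and 25.1% lower. There were 8 members with an unadjusted p under 0.05. The median difference was -0.01, against -0.14 over all genes, and 39 members were above 0. Nearest to the threshold were Atp5s at -0.37 ± 0.14 (SE, limma adjusted p of 0.0514), Sdhb at 0.35 ± 0.14 (0.0550) and Ndufb4 at -0.72 ± 0.28 (0.0594). Sdhb had 52.9 to 85.7 FPKM in ascending controls, with a median of 67.5, against 34.7 to 78.7 FPKM in descending controls, with a median of 52.2. The groups overlapped, with descending control B1 at the top of its group.

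Ndufb4 showed how much descending control A2 weighed. It had 6.67 to 10.49 FPKM in the 7 ascending controls, against 3.48 FPKM in descending control A2 and 14.6 to 21.7 FPKM in the other 6 descending controls. Without that library its difference was -1.05 ± 0.09 (SE, limma adjusted p of 1.78e-06), and limma called 13 members, all lower in the ascending colon, beside a background of 43.9% of all genes called and 28.6% called lower. Descending control A2 was also picked for low values of the members, so these calls are not independent support. The median was then -0.15. Cox7a1 was among them at -0.87 ± 0.24 (limma adjusted p of 0.00992), with Uqcrb at -0.35, Atp5j of the peripheral stalk at -0.36 and Atp5c1 of the catalytic part at -0.40. The count was 6 without descending control B1, 3 without ascending control A2 or descending control A1, and 1 without ascending control B1 or B2 or descending control C1. Median-of-ratios scaling moved the median of all genes by over 0.1, to -0.01, and that of the members to 0.15, and it called 2 members, both higher, 1 of them Sdhb at 0.51. The counts without other single libraries and under this scaling are given without the share of all genes called, so they show only how the calls moved. The direction of the members as a group between the regions of controls depended on the scaling and on single libraries, and 9 of 27 alternatives gave a median above 0. Whether the regional differences themselves differed between mutants and controls is the interaction given above, in which no member was called.

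**Figure D4:**
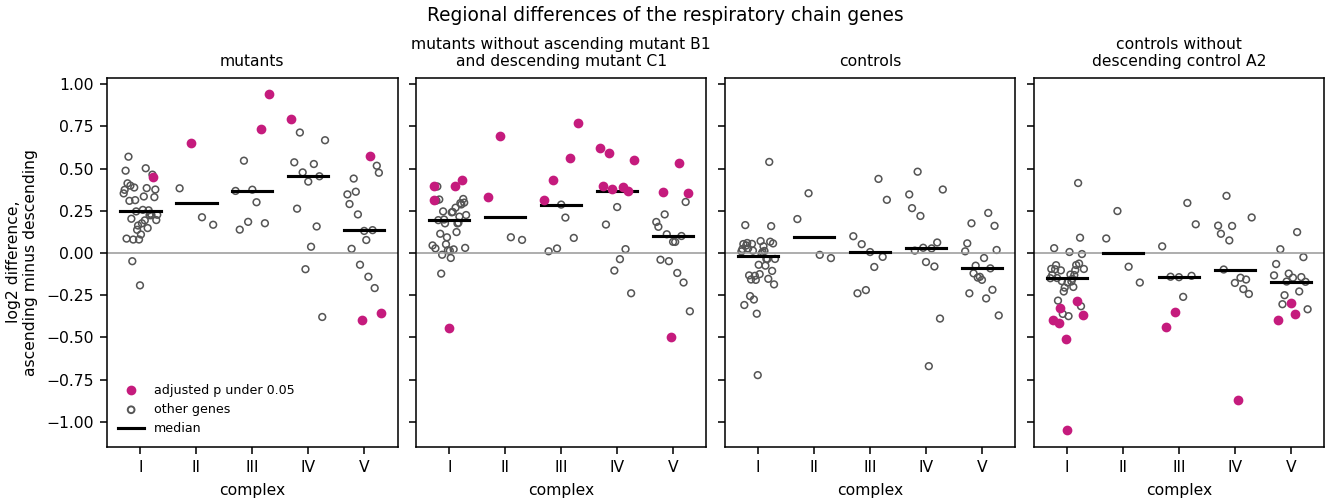
Log2 difference of ascending minus descending colon for each of the 79 genes by complex, in mutants and in controls, with called genes marked. The medians are 0.26 in mutants and -0.01 in controls.

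Markers of cell types differed between the regions. Colonocyte markers summed to 15110 to 23350 FPKM in ascending mutants and 9662 to 16870 FPKM in ascending controls, against 3321 to 7446 FPKM in descending mutants and 3852 to 7494 FPKM in descending controls. In each genotype 11 of 16 of them were called higher in the ascending colon, beside 14.3% of all genes in mutants and 12.8% in controls. Of 12 smooth muscle markers tested, 11 were called lower in the ascending colon of mutants and 2 in that of controls, beside 29.7% and 25.1% of all genes. Of 17 proliferation markers, 10 were called lower in the ascending colon of mutants and 15 in that of controls. No test compared these counts between the genotypes, and the markers' part in the members' regional values was not tested.

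The cages were compared within each region, with genotype as a covariate. Cage A differs from the other cages in its cage, its strain label and its age at once, and these cannot be told apart. In the ascending colon, cage A against cages B and C, limma called 1 of 79 members, beside a background of 2.44% of 12178 genes, 1.11% higher and 1.33% lower. This was Ndufs5, at 0.93 ± 0.21 (SE, limma adjusted p of 0.0336). Its level (chromosome 4, 123712710 to 123718202, minus strand) was 5.25, 6.86 and 7.54 FPKM in the mutants and 7.05 and 6.40 FPKM in the controls of cage A. In cages B and C it was 1.39 to 5.51 FPKM in the 5 mutants and 1.82 to 4.77 FPKM in the 5 controls. The cages overlapped in mutants through mutant C1 at 5.51 FPKM, and the ascending cage A mutants had the lowest estimated depths of all, 1.43 to 1.59 M reads. The call was lost without ascending mutant A2, A3, C2 or C3, without ascending control A1 or A2, and under median-of-ratios scaling or quantile normalization, where the adjusted p of limma was 0.0513 to 0.103. The median over the members was 0.29, with 76 above 0 and 18 at an unadjusted p under 0.05, and it was 0.16 without ascending mutant B1.

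In the descending colon, cage A against cages B and C, the median was 0.28 and 76 members were above 0, but limma called 0, beside a background of 1.03%, 0.352% higher and 0.679% lower. The median was 0.11 without descending mutant C1, 0.14 without descending mutant A3 and 0.51 without descending control A2. Ndufv3 at 0.31 ± 0.13 (SE), Atp5l at -0.51 ± 0.23 and Ndufa12 at 0.38 ± 0.18 had the smallest p-values, with limma adjusted p of 0.254, 0.293 and 0.325. Ndufs5 had 4.71, 3.22 and 7.28 FPKM in the mutants and 3.76 and 1.96 FPKM in the controls of cage A, so that 2 of the mutants lay above every descending library of the other cages. Cage C against cage B, which share a strain label, gave no called member in the ascending colon, beside a background of 0.0411% (0.00821% higher, 0.0328% lower), and none in the descending colon, beside 0.0491% (0.00818% higher, 0.0409% lower). The medians were -0.03 in the ascending and -0.31 in the descending colon. The ascending one ran from -0.25 without ascending mutant B1 to 0.05 without ascending control C1. The descending one rested on descending mutant C1, without which it was -0.0086, and it was -0.20 without descending control B1. In the descending colon Cox6a1 at -0.86 ± 0.36 and Cox8a at -0.82 ± 0.38, both of complex IV, each had a limma adjusted p of 0.807.

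Genes around the respiratory chain did not all move as its subunits did. In the ascending colon, mutants against controls, the median difference was 0.06 for 50 assembly factors, 0.12 for 17 genes of electron carriers and ubiquinone synthesis, 0.22 for 17 citric acid cycle genes, 0.17 for 15 genes of mitochondrial carriers and cristae and 0.15 for 77 genes of the mitochondrial ribosome, beside 0.31 for the members. All 17 citric acid cycle genes and 71 of 77 mitochondrial ribosome genes were above 0. Regulators of mitochondrial biogenesis had a median of -0.05, with 5 of 16 above 0. Small-subunit genes of the cytosolic ribosome had 0.08 and glycolysis genes 0.10. A set of 259 other genes with at most 1000 nt of exonic sequence, a length that many members exceed, had 0.05. Limma called none of these genes.

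Between regions, genes of several of these lists were called, beside the same backgrounds of 44.0% in mutants and 37.9% in controls in either direction. By direction, the backgrounds were 14.3% higher and 29.7% lower in mutants, and 12.8% higher and 25.1% lower in controls. Of the 50 assembly factors, 5 were higher and 5 lower in the ascending colon of mutants, and 3 were higher and 8 lower in that of controls. Higd1a, which binds complex IV and is induced by low oxygen, differed by 1.94 ± 0.14 (SE, limma adjusted p of 9.62e-09) in mutants and by 1.62 ± 0.15 (3.31e-06) in controls. Sco1, a copper chaperone of complex IV, differed by 0.62 ± 0.11 (0.000263) and 0.52 ± 0.09 (0.000441). Of the regulators, 9 of 17 were lower in the ascending colon of mutants and 6 of 17 in that of controls, and none was higher. Gabpa, whose motif letters were searched in the promoters, differed by -0.57 ± 0.09 (limma adjusted p of 9.50e-05) in mutants and -0.68 ± 0.08 (3.57e-05) in controls. Esrrg, an oestrogen-related receptor that drives oxidative genes, differed by -2.26 ± 0.13 (3.60e-10) and -1.97 ± 0.20 (6.43e-06). The part of these regulators in the members' levels was not tested. Esrrg was not detected in every library, so its differences rest partly on values at the floor.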

How the data were processed

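The starting point was the authors' deposited table of FPKM, with 2 decimals, for 14475 genes in 30 libraries. The labels' protocols describe 1 ug of total RNA, removal of ribosomal RNA and single reads of 50 nt. The submitters' processing notes name bcl2fastq 2.17, STAR, DESeq2 and the GRCm38 (mm10) build. The counter, annotation and gene lengths behind the FPKM are not stated in these sources, and no read counts were used. Depth was therefore estimated from the spacing of low values. It entered no test and has no independent check, so precision was judged by how far libraries of a group differ.

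Values were transformed to log2(FPKM + 1), which understates fold changes of low genes. For each comparison the whole table was fitted with limma 3.58.1 (R 4.3.3; lmFit, then eBayes with a trend), after removing genes whose mean in its libraries was below 0.5 FPKM. Tests were two-sided, with Benjamini-Hochberg adjustment over all genes and a threshold of 0.05. Cage was a covariate of the comparisons of genotype and region, and genotype of the comparisons of cages. An error after ± is a standard error for a log2 difference and an SD for a level. Positions are from GENCODE M21, which held 14472 of the identifiers. Within-cage values are differences of means. Shared windows of 50 nt were counted over transcript sequences.

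The members and the lists were chosen with earlier results of these data known, so no p is given for a list. Genes are named by a rule: the highest and lowest of each complex, up to 6 called members per direction of a comparison or else the 3 with the smallest p, and alternative forms of a subunit. From other pathway lists the rule takes up to 3 called genes. Members named beyond this, in the passages on single libraries, on functional parts and on values without the low libraries, were chosen after their values were seen.

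The alternatives changed 1 choice at a time: the pseudocount (0.1), the filter (none, or 2 FPKM), the scaling (median of ratios, or quantiles), the moderation (robust), the weights (by library quality), the covariate (none), the libraries fitted together (all 30), a replicate block, and the libraries used, without each cage or each library. Leaving out the 3 low libraries together was added after seeing the data.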

Additional observations from a re-analysis of the deposited data

Results flagged for a closer look

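In each group of 7 or 8 libraries, the lowest and the highest library were set against Dixon's criterion for 40 values, the member means and the named members. Chance marks about 1 in 20 such groups, and the values share libraries, so marks in 1 library are not separate findings. All marked values were the lowest of their group and lay in 3 libraries. None of their causes was tested.

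Descending mutant C1 stood apart from the other descending mutants with a mean log2 level of 4.19 over all members, and in each complex, with 3.80 for complex I, 5.07 for complex II, 4.75 for complex III, 4.78 for complex IV and 4.05 for complex V. In complex I it had 20.9 FPKM for Ndufa1, 10.0 FPKM for Ndufa12, 5.44 FPKM for Ndufa4 and 2.28 FPKM for Ndufb4. In complex II it had 43.8 FPKM for Sdhd and 17.1 FPKM for Sdhc. In complex III it had 54.1 FPKM for Uqcr10, 9.3 FPKM for Uqcrb, 10.3 FPKM for Uqcrq and 32.6 FPKM for Uqcrfs1. In complex IV it had 129 FPKM for Cox8a, 18.3 FPKM for Cox7a1, 60.3 FPKM for Cox4i1, 11.2 FPKM for Cox7a2l, 29.5 FPKM for Cox7b and 89.5 FPKM for Cox6b1. In complex V it had 85.1 FPKM for Atp5a1, 1.15 FPKM for Atp5g1 and 60.8 FPKM for Atp5g3.

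Ascending mutant B1 stood apart from the other ascending mutants in 8 named genes, with 69.7 FPKM for Sdhd, 47.8 FPKM for Sdhb, 39.3 FPKM for Ndufb10, 28.1 FPKM for Ndufa10, 202 FPKM for Cox4i1, 65.5 FPKM for Cox7b, 68.4 FPKM for Cox7a2 and 19.5 FPKM for Atp5j2. Descending control A2 stood apart from the other descending controls in 4, with 20 FPKM for Uqcrb, 39.7 FPKM for Ndufb10, 3.48 FPKM for Ndufb4 and 21.4 FPKM for Ndufa10.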

How the results depend on the processing

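No called member changed direction under an alternative. Called genes of the other lists were not followed through the alternatives. The members' medians were less stable. They kept their sign in every alternative for the genotype effect in the ascending colon (0.10 to 0.48), regions in mutants (0.04 to 0.44), ascending cage A (0.16 to 0.34) and descending cage A (0.11 to 0.51). They changed sign in 9 of 29 for the genotype effect in the descending colon (-0.28 to 0.20), 1 of 43 for the difference of the effects (-0.11 to 0.56), 9 of 27 for regions in controls (-0.16 to 0.15), and 5 of 22 and 2 of 23 for cage C against cage B in the ascending (-0.25 to 0.05) and descending colon (-0.42 to 0.01). Counts of called members moved too. They are given here without the share of all genes called under each setting, so they show only how the calls moved. In the ascending colon, mutants against controls, the count was 33 with array quality weights and 31 without cage B, and it ran from 0 to 19 with 1 library left out. Between regions in controls it was 1 at a mean of at least 2 FPKM, 2 with median-of-ratios scaling, 1 with quantile normalization, 11 (3 higher and 8 lower) when libraries were weighted by quality, 9 when cage A was left out and 0 to 13 with 1 library left out. In mutants it was 20 with median-of-ratios scaling, 19 with array quality weights, 4 without the cage covariate, 4, 5 and 1 without cage A, B or C, 22 without the 3 low libraries, and 1 to 19 with 1 library left out. Ascending cage A gave 0 with median-of-ratios scaling or quantile normalization, 3 with array quality weights and 0 to 1 with 1 library left out, and descending cage A gave 8 with array quality weights. The causes were not tested. Not every pair of same-numbered libraries correlated above 0.1, so the numbers were not taken to pair the samples: 4 of 15 region pairs did, among them all 3 of the mutants of cage C, and 3 of 6 genotype pairs did in each region. Values were centred within group and cage, so where a group had 2 libraries in a cage, both region pairs had the same correlation. These counts therefore cannot decide whether the numbers pair the samples. With a replicate block the count was 0 for genotype in the ascending and descending colon, 0 for their difference, 0 for regions in controls and 9 for regions in mutants. With levels as FPKM and no counts, the precision of members of a few FPKM at 1.43 M reads cannot be computed.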
